A study of Mus musculus with 44 samples.

Results

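Promoter peaks were taken as the open-chromatin windows that lie at the start of a protein-coding gene. Of 152393 ATAC-seq peaks, each a window of 200 bp, 12414 (8.15%) lay within 100 bp of an annotated start site of a protein-coding transcript, and the other 139979 did not. The promoter peaks covered 11544 of 21901 protein-coding genes (52.7%). In 9083 of them the window spanned the start site itself. A window served several genes in 803 cases, and in 733 of these the genes ran in opposite directions from a shared start region, so that their signals cannot be told apart.

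A promoter is the DNA around a start site at which general factors assemble and load RNA polymerase. Most promoters of widely used genes lie in stretches rich in the dinucleotide CpG, which tend to stay free of nucleosomes in most cell types, whereas CpG-poor promoters more often open in particular tissues under the control of sequence-specific factors. Oct4 (gene *Pou5f1*) and Sox2 are such factors: they pair on a composite OCT-SOX element and maintain the pluripotent cells of the inner cell mass (ICM), most of their known sites being enhancers away from start sites.

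ATAC-seq measures accessible DNA from the insertions of the Tn5 transposase. The data held 44 libraries of pooled mouse embryos, 20 to 40 embryos each, in 12 groups: 3 libraries each of *Pou5f1*-KO and *Pou5f1* Ctrl at the morula stage (E2.75) and at the late morula stage (E3.25), and 4 libraries each of *Pou5f1*-KO, *Pou5f1* Ctrl, *Sox2*-KO and *Sox2* Ctrl embryos as early ICMs (E3.75) and late ICMs (E4.5). Every group lacked the maternal gene copy, which Zp3-Cre deletes in the oocyte, so that Ctrl embryos are maternal knockouts and KO embryos lack the paternal copy too. The knockout alleles carry a fluorescent reporter driven by the mouse PGK promoter, mKO2 at *Pou5f1* and EGFP at *Sox2*. Embryos for ICMs were cultured in KSOM medium with 1 µM of the MEK inhibitor PD0325901 before immunosurgery, which removes the outer trophectoderm, whereas morulae were untreated whole embryos, so a step from morula to ICM cannot be told apart from culture, inhibitor and isolation. Each library is a pool, and p-values measure the spread between pools.

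Sequences at 8 promoter peaks are shown as examples picked for the words they hold. In late ICMs 23 of the 659 promoters lower in *Pou5f1*-KO held a match to the OCT-SOX element, and 10 of the 73 lower in *Sox2*-KO. Of the 8 shown, 6 hold such a match and fell without *Pou5f1*, *Sox2* or both. Another 1 holds GATA words and rose, and 1 is among the most open promoters and stayed level. All are GRCm38 (mm10) reference sequence, printed 5′ to 3′ along the gene. The capitals in the first 6 mark the composite OCT-SOX match, which has 1 mismatch to the element in *Pipox*, 2 in *Dennd2c* and *Fam169a*, and 3 in *Ssr2*, *Liph* and *Il33*. Those in *Hk1* mark the GATA word AGATAAG or its reverse complement, and those in *Rab5b* mark the NFY word CCAAT or its reverse complement. The windows of *Dennd2c*, *Fam169a* and *Rab5b* hold no annotated exon. The shown parts of *Ssr2*, *Il33* and *Hk1* end 30 bases into the first exon of a transcript, and the matches of *Pipox* and *Liph* lie in an exon, 36 and 34 bases downstream of the start site, so they are shown with 5 bases on each side.
*Pipox* (chr11:77894048-77894072, minus strand): gcgccATTTGCATGACAATAattga
*Dennd2c* (chr3:103127277-103127476, plus strand): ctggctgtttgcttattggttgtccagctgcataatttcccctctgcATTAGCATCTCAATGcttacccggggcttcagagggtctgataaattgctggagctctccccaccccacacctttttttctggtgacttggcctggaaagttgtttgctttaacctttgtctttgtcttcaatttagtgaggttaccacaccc
*Fam169a* (chr13:97067084-97067283, plus strand): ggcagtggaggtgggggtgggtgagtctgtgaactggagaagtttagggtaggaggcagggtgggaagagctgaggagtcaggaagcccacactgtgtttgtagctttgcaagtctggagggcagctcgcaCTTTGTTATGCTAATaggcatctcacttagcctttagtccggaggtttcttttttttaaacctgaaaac
*Ssr2* (chr3:88575730-88575905, plus strand): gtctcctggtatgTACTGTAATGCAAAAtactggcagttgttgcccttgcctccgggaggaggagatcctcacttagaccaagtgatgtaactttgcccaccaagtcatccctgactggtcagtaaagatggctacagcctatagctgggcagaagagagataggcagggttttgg
*Liph* (chr16:21995617-21995641, minus strand): ggcatCCTTCAAATGCAAATgacac
*Il33* (chr19:29945631-29945819, plus strand): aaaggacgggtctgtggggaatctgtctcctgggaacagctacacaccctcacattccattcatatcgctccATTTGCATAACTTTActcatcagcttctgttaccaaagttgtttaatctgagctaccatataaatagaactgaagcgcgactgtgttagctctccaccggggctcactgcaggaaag
*Hk1* (chr10:62342693-62342849, minus strand): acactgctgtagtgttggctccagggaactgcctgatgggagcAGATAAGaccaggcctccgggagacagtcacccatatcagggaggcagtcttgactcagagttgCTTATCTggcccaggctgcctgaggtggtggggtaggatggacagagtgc
*Rab5b* (chr10:128696334-128696533, minus strand): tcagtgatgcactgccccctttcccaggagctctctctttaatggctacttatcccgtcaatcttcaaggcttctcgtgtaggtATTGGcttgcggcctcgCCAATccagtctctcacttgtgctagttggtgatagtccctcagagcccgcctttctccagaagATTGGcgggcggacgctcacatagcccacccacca

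Promoter peaks were more open than the rest, and most of them were called in no comparison. The deposited unit is rlog, a log2 scale of insertions per window that corrects for library depth and pulls weak windows towards their mean, so differences at weak promoters are understated. The median of the mean rlog over libraries was 3.88 at promoter peaks against 2.34 at the other peaks, and 64.0% of promoter peaks (7939) had all 12 group means at or above the median of all peaks, against 21.7% of the others. Calls rest on limma's two-sided moderated test with an adjusted p under 0.05, the adjustment being that of Benjamini and Hochberg for all 152393 peaks. Of the promoter peaks, 9539 (76.8%) were called in none of 10 comparisons between groups, against 51.8% of the other peaks. A value given for a gene is that of 1 window, and *Dab2*, *Fance*, *Fgd4*, *Itgb5*, *Jak3*, *Lrrc1*, *Metap2*, *Mfap3l*, *Mtmr4*, *Myl4*, *Otx2*, *Ppfibp1*, *Rbpj*, *Serhl*, *Spag9* and *Tfap2a* have other promoter windows too, as do the genes whose several windows are mentioned where they are described. A knockout comparison called 1010 promoter peaks (8.14%, against 26.0% of the others), a stage comparison 2238 (18.0%, against 35.2%), and 373 (3.00%) were called in both kinds. The 5 most open promoter peaks were those of *Cdca2* (mean rlog 7.56), shared with *Kctd9*, *Rab5b* (7.55), *Zfp687* (7.44), *Mtmr4* (7.39) and *Gsk3b* (7.38). At *Rab5b*, a small GTPase of early endosomes, all 44 libraries lay between 7.03 and 8.05, and no comparison called it.

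Promoters as a class became more open with stage in *Pou5f1* Ctrl embryos. In *Pou5f1* Ctrl embryos the median rlog of all promoter peaks in a library was 3.17 to 3.70 in morulae, 3.76 to 3.89 in late morulae, 3.97 to 4.26 in early ICMs and 4.09 to 4.52 in late ICMs, whereas the median of the other peaks was 2.24 to 2.55 over all 44 libraries. Ctrl morulae and late morulae did not overlap in this median, nor did Ctrl late morulae and early ICMs, and in each of the other comparisons the groups overlapped. Among morulae replicate 3 was highest in both genotypes, at 3.70 in Ctrl and 3.73 in KO, close to the lowest Ctrl late morula at 3.76. *Pou5f1*-KO embryos had 3.23 to 3.73 in morulae, 3.68 to 3.80 in late morulae and 3.77 to 4.31 in early ICMs, so neighbouring stages overlapped. *Sox2* Ctrl embryos had 3.64 to 4.11 in early ICMs and 4.01 to 4.07 in late ICMs. *Pou5f1*-KO late ICMs lay at 3.96 to 4.14, with a promoter median difference from Ctrl of -0.22. The shift differed between classes of promoters: from morula to late morula the median difference was 0.43 at CpG-rich and 0.29 at CpG-poor promoters (classes defined further on). Counts are also given after subtracting the median over promoter peaks from each library, called the centred scale. Depth of the libraries and the share of reads in open chromatin, which could move with this median, are unknown from rlog values, and their part in it was not tested.

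**Figure D1:**
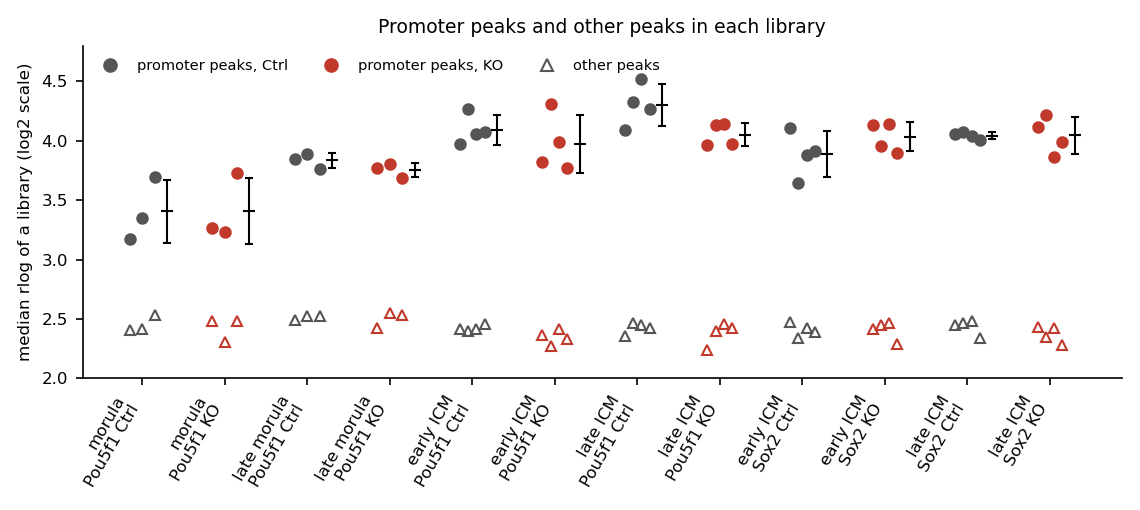
Median rlog (log2 scale, vertical axis) of promoter peaks (circles) and of the other peaks (triangles) in each of the 44 libraries by group, with bars for the mean ± SD of the promoter medians in a group. Promoter medians climb from 3.17 to 3.70 in Ctrl morulae to 4.09 to 4.52 in *Pou5f1* Ctrl late ICMs, and the other peaks stay between 2.24 and 2.55.

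Loss of *Pou5f1* lowered more promoters in late ICMs than any other knockout comparison called. Called lower were 659 promoter peaks (5.31%), against 10.1% of all peaks, and called higher were 161 (1.30%), against 8.19% of all peaks. On the centred scale the counts were 268 lower and 356 higher, and all 161 higher calls and 268 of the lower calls were made on both scales, so the balance of lower and higher rests on the shift of the promoter median while the largest changes do not. Leaving out KO replicate 1 left 421 lower, and leaving out Ctrl replicate 3 left 393. In these pools fewer cells with an open promoter and less opening per cell cannot be told apart.

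The promoter of *Etv1*, an ETS family transcription factor (chr12:38779362-38779561), fell furthest. Its rlog in *Pou5f1* Ctrl late ICMs was 5.76, 5.12, 5.11 and 5.41, and in KO late ICMs 0.95, 2.47, 1.17 and 0.63. All KO libraries lay below all Ctrl libraries, a difference of -4.05 ± 0.43 (SE, n = 4 and 4, adjusted p = 1.2e-12). *Ssr2*, which encodes a subunit of the translocon-associated complex of the endoplasmic reticulum, had 5.48, 5.10, 4.94 and 4.75 in Ctrl and 1.08, 1.16, 1.25 and 1.24 in KO. The groups were far apart at its upstream start, by -3.88 ± 0.41 (adjusted p = 1.03e-12). Next came 1 of 2 windows of *Nacc2*, a BTB-domain transcriptional repressor, with -3.19 ± 0.45, and *Pipox*, a peroxisomal oxidase of sarcosine and pipecolate, with -3.18 ± 0.43. *Pou2f3*, a POU family factor best known from chemosensory tuft cells, followed with -2.96 ± 0.37, *Lemd1* with -2.80 ± 0.43, and *Myo10*, the unconventional myosin of filopodia, with -2.78 ± 0.43. At each of these promoters the 4 KO libraries lay below the 4 Ctrl libraries, and each was called on the centred scale too.

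The promoters that rose in *Pou5f1*-KO late ICMs rose less far. At *Ppfibp1*, which encodes the scaffold protein liprin beta 1, the KO libraries had 4.90, 4.68, 5.19 and 4.87 against 2.38, 3.15, 1.64 and 2.74 in Ctrl. The groups did not overlap, and the difference was 2.43 ± 0.41 (adjusted p = 2.05e-06). *Myl4*, an atrial myosin light chain, rose by 2.02 ± 0.44, and 1 of 4 windows of *Hk1*, a hexokinase of the first step of glycolysis, by 1.94 ± 0.46. The GATA-containing *Hk1* start shown among the sequences had 3.74, 3.66, 3.24 and 3.90 in KO and 2.34, 2.67, 1.15 and 0.62 in Ctrl, without overlap. *Hk1* changed by 0.26 ± 0.46 in *Sox2*-KO late ICMs (adjusted p = 0.847), and the effects of the knockouts differed by 1.68 ± 0.65 (adjusted p = 0.224).

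**Figure D2:**
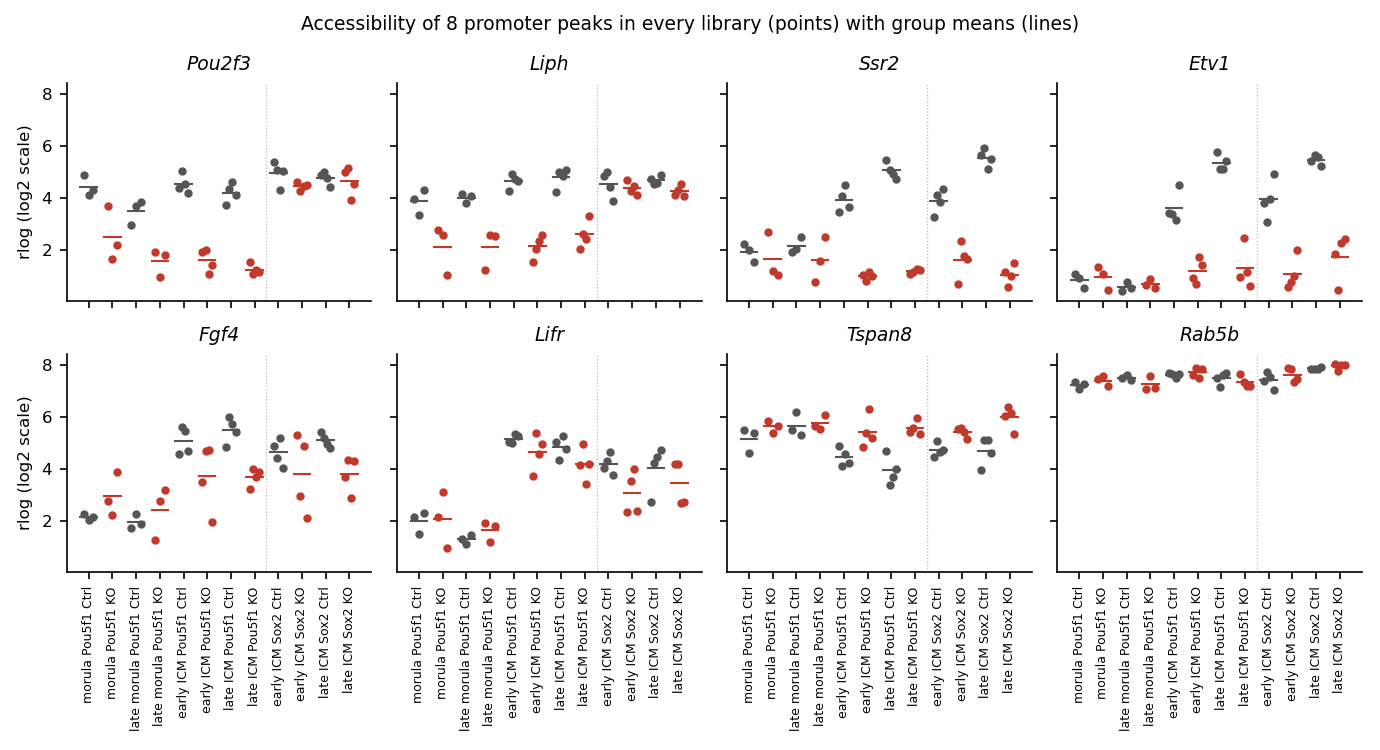
Rlog (log2 scale, vertical axis) of 8 promoter peaks in every library, with groups along the horizontal axis, points for libraries (grey Ctrl, red KO), short lines for group means and a dotted line between the *Pou5f1* and *Sox2* lines. *Pou2f3* and *Liph* are low in the *Pou5f1*-KO groups, *Ssr2* and *Etv1* fall in both knockouts, *Lifr* and *Fgf4* open between late morula and early ICM, and *Rab5b* stays between 7.03 and 8.05.

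In ICMs without *Pou5f1* and in late ICMs without *Sox2*, a larger share of CpG-poor than of CpG-rich promoters was called in each direction. A window was taken as CpG-rich when its CpG count was at least 0.6 of that expected from its base composition and its GC content at least 55%. By this measure 8478 promoter peaks (68.3%) were CpG-rich, against 3.34% of the other peaks. In *Pou5f1*-KO late ICMs 4.12% of CpG-rich and 7.88% of CpG-poor promoter peaks were called lower, and 0.177% and 3.71% were called higher. On the centred scale these shares were 1.38% and 3.84% lower and 0.991% and 6.91% higher. In *Sox2*-KO late ICMs 0.177% of CpG-rich and 1.47% of CpG-poor promoters were called lower, and 0.118% and 1.04% higher. The shares were close for promoters higher from morula to late morula, at 5.17% of CpG-rich and 5.26% of CpG-poor ones. On the centred scale these were 0.566% and 0.915%, and 0.0118% and 0.737% were lower without centring. In *Sox2*-KO early ICMs 0.142% and 0.102% were higher. Of CpG-rich promoters 81.0% were called in none of the 10 comparisons, and of CpG-poor promoters 67.8%. The CpG-poor windows were also weaker, with a median rlog of 3.47 against 4.02. Among promoters with a mean rlog under 3, 8.32% of 1924 CpG-rich and 9.63% of 1516 CpG-poor ones were called lower in *Pou5f1*-KO late ICMs, and 0.208% and 4.22% were called higher. At a mean rlog of 3 to 5, which 4623 CpG-rich and 1689 CpG-poor promoters had, the shares were 3.37% and 7.40% lower and 0.130% and 3.73% higher, and above 5 they were 1.71% and 5.34% lower and 0.259% and 2.60% higher. The classes were thus close for lower calls among weak promoters and apart at the other levels, and apart for higher calls at each level.

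**Figure D3:**
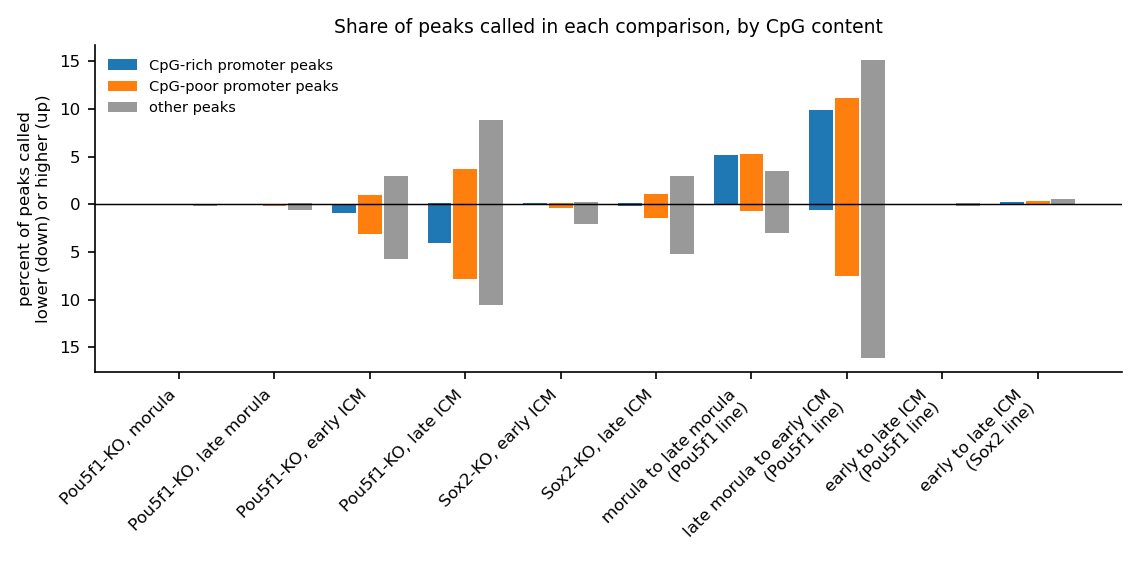
Percent of peaks called lower (bars down) and higher (bars up) in each of the 10 comparisons, for CpG-rich promoters, CpG-poor promoters and other peaks. In both *Pou5f1*-KO ICM comparisons and in *Sox2*-KO late ICMs the shares grow from CpG-rich promoters to CpG-poor promoters to other peaks, and in late morula to early ICM 9.90% of CpG-rich and 11.1% of CpG-poor promoters are called higher.

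Called promoters more often had a neighbour that was called the same way. In *Pou5f1*-KO late ICMs 240 of the 659 lower promoters (36.4%) had a lower peak outside promoters within 10 kb, against 18.4% of all promoter peaks. For the higher promoters the shares were 44.1% and 15.4%, for the lower promoters of *Pou5f1*-KO early ICMs 37.7% and 10.3%, and for the lower promoters of *Sox2*-KO late ICMs 38.4% and 7.82%. These are descriptions over peaks, which are not independent of one another.

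Few promoters were called in *Pou5f1*-KO embryos before the ICM formed. In *Pou5f1*-KO morulae 3 promoter peaks were called lower, against 0.185% of all peaks, and 0 higher, against 0.0518% of all peaks. At an unadjusted p under 0.05, 318 promoter peaks were lower and 348 higher. The 3 were *Pou2f3* with -1.91 ± 0.43 (adjusted p = 0.0208), *Liph*, a lipase, with -1.75 ± 0.42 (adjusted p = 0.0373), and *Rbpj*, the nuclear effector of Notch, with -1.58 ± 0.33 (adjusted p = 0.0105). At *Pou2f3* (chr9:43210139-43210338) the Ctrl morulae had 4.87, 4.12 and 4.30 and the KO morulae 3.71, 1.66 and 2.18, so KO replicate 1 lay nearest to Ctrl. The count rested on single libraries: it was 11 lower without KO replicate 1, 0 without KO replicate 2, and 1 when Ctrl or KO replicate 3 was left out, and 2 and 8 promoters were called higher without Ctrl replicates 2 and 3. The call at *Pou2f3* was lost in 3 of 6 such fits (adjusted p up to 0.281), that at *Liph* in 4 (up to 0.492) and that at *Rbpj* in 4 (up to 0.287). With the replicate number as a block 18 promoter peaks were called lower and 8 higher.

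In *Pou5f1*-KO late morulae 8 promoter peaks were called lower, against 0.539% of all peaks, and 2 higher, against 0.108% of all peaks. With the replicate number as a block, which pairs the samples here, 18 were lower and 3 higher. *Spag9*, a scaffold of JNK signalling, had 3.28, 3.07 and 3.02 in Ctrl and 1.17, 0.32 and 1.05 in KO, a difference of -2.27 ± 0.46 (adjusted p = 0.00195). *Il33*, a cytokine gene whose OCT-SOX match lies 80 bases upstream of the start, had 4.79, 4.62 and 4.59 in Ctrl and 3.18, 2.82 and 2.03 in KO, a difference of -1.99 ± 0.37 (adjusted p = 0.000617). Neither pair of groups overlapped. *Hormad2*, a meiotic HORMA-domain gene, fell by 2.07 on the log2 scale and *Pou2f3* by 1.94. The 2 that rose were *Fance*, a Fanconi anaemia gene, by 2.27, a call lost in 4 of 6 fits with a library left out (adjusted p up to 0.101), and *Hand1*. *Hand1*, a transcription factor of trophoblast, was the called promoter of the trophectoderm list, with a mean of 2.62 ± 0.33 in Ctrl and 4.17 ± 0.14 in KO (SD, n = 3 each) and no overlap, a rise of 1.55 ± 0.40 (adjusted p = 0.0382) that no fit with 1 library left out called (adjusted p up to 0.215). Leaving out 1 library left 3 to 5 lower calls without Ctrl replicates 1, 2 and 3 (5, 4 and 3) or KO replicate 3 (5), and each of the 6 fits made 0 or 1 higher call. The calls at *Pou2f3* and *Hormad2* were lost in 3 and 2 of those fits (adjusted p up to 0.135 and 0.0974).

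In *Pou5f1*-KO early ICMs 199 promoter peaks (1.60%) were called lower, against 5.43% of all peaks, and 41 (0.330%) higher, against 2.753% of all peaks. With the replicate block 351 were lower and 84 higher, on the centred scale 126 and 65, and without Ctrl replicate 2 there were 111 lower. *Ssr2* fell by 2.94 and *Pou2f3* by 2.94, with *Pou2f3* at 4.39, 5.02, 4.55 and 4.21 in Ctrl and 1.94, 1.99, 1.06 and 1.43 in KO. These libraries did not overlap (adjusted p = 1.91e-09). *Liph* (chr16:21995477-21995676) had 4.28, 4.93, 4.73 and 4.66 in Ctrl and 1.55, 2.04, 2.36 and 2.59 in KO, a difference of -2.51 ± 0.37 (adjusted p = 1.33e-07). *Mfap3l*, a weak window in Ctrl ICMs, had 0.20, 0.63, 0.76 and 0.06 in Ctrl and 2.50, 3.17, 3.51 and 3.04 in KO, a rise of 2.64 ± 0.42 (adjusted p = 1.14e-06). *Fgd4*, an exchange factor for the GTPase Cdc42, rose by 1.99 ± 0.36. Of the 199 promoters lower in early ICMs, 117 (58.8%) were also lower in late ICMs, where they made up 17.8% of the 659, and of the 41 higher 21 (51.2%) were also higher (13.0% of 161). No promoter was called in opposite directions at the 2 stages, and the early and late comparisons share no library.

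Loss of *Sox2* called fewer promoters than loss of *Pou5f1* at the same stage. In *Sox2*-KO early ICMs 15 promoter peaks were called lower, against 1.91% of all peaks, and 16 higher, against 0.238% of all peaks. On the centred scale there were 24 lower and 6 higher, and with the replicate block 22 lower and 65 higher. The higher count was 57 without Ctrl replicate 1, 10 without KO replicate 1 and 4 when Ctrl replicate 2 or KO replicate 3 was left out, and the lower count was 7 without KO replicate 1. At an unadjusted p under 0.05, 179 promoter peaks were lower and 709 higher. *Etv1* had 3.80, 3.08, 3.97 and 4.94 in *Sox2* Ctrl and 0.57, 0.77, 1.00 and 1.99 in KO, a difference of -2.87 ± 0.43 (adjusted p = 1.1e-06). *Ssr2* fell by 2.27 and *Thbs2*, the matrix protein thrombospondin 2, by 1.91, all without overlap.

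In *Sox2*-KO late ICMs 73 promoter peaks (0.588%) were called lower, against 4.88% of all peaks, and 51 (0.411%) higher, against 2.71% of all peaks. Leaving out KO replicate 1 or 2 left 25 higher calls, leaving out KO replicate 4 left 33, and leaving out Ctrl replicate 1, 3 or 4 left 32. *Ssr2* had 5.65, 5.92, 5.13 and 5.49 in Ctrl and 1.16, 0.58, 1.00 and 1.48 in KO, so that the groups lay far apart (-4.49 ± 0.41, adjusted p = 5.62e-15). *Etv1* followed with 5.45, 5.64, 5.57 and 5.22 in Ctrl and 1.84, 0.46, 2.27 and 2.43 in KO (-3.72 ± 0.43), then *Lemd1* with -2.95 ± 0.43. *Dennd2c*, a DENN-domain gene whose downstream start carries an OCT-SOX match, had 3.30, 3.34, 3.51 and 3.33 in Ctrl and 0.26, 1.27, 0.87 and 0.74 in KO (-2.59 ± 0.43, adjusted p = 3.03e-06). *Fam169a* had 4.55, 4.64, 4.29 and 3.63 in Ctrl and 1.46, 2.66, 2.62 and 0.96 in KO (-2.35 ± 0.44, adjusted p = 3.58e-05). None of these groups overlapped. *Pipox* fell by 2.24 and *Wnt5b*, a Wnt ligand, by 2.11. Among promoters that rose, *Tceal9* had 1.91 ± 0.47 and *Itgb5*, an integrin subunit, 1.55 ± 0.41.

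In late ICMs the knockouts shared a small set of promoters. Of the promoters lower in *Pou5f1*-KO late ICMs 40 were lower in *Sox2*-KO late ICMs, which is 6.07% of the 659 and 54.8% of the 73, and 16 were higher in both, 9.94% of the 161 and 31.4% of the 51. None was called in opposite directions. These comparisons share no library, and across the 12414 promoter peaks their differences had a correlation of 0.30, a description over peaks that share libraries and depth within each line. In early ICMs 5 promoters were lower in both, 2.51% of the 199 and 33.3% of the 15, 1 was higher in both, and the correlation was 0.071. Lower in all 4 ICM knockout comparisons were *Etv1*, *Ssr2* and *Thbs2*. *Thbs2* had 4.55, 4.86, 4.68 and 4.96 in *Pou5f1* Ctrl late ICMs and 1.26, 1.96, 3.23 and 3.03 in KO, and 4.53, 3.78, 4.35 and 3.74 in *Sox2* Ctrl late ICMs and 2.93, 2.06, 2.41 and 2.82 in KO. Both knockouts lay wholly below their Ctrl groups, by -2.39 ± 0.42 and -1.55 ± 0.42.

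**Figure D4:**
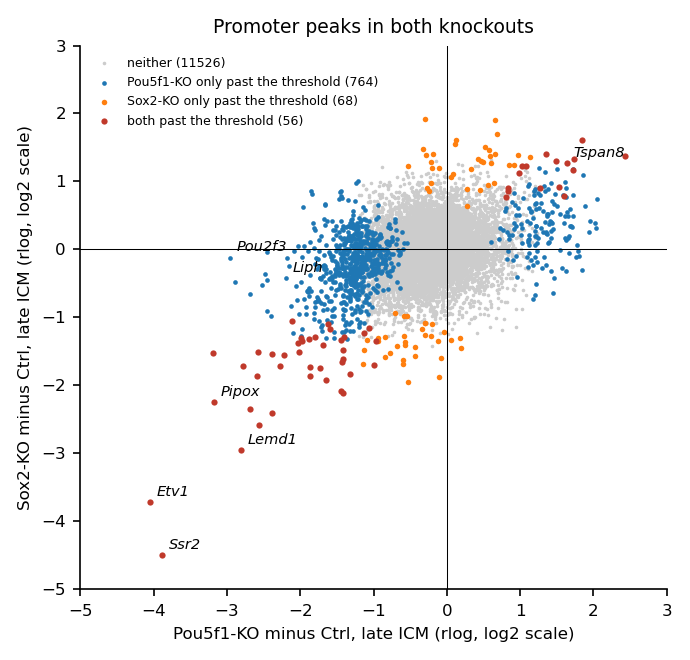
Difference between KO and Ctrl late ICMs (log2 scale) for *Pou5f1* (horizontal axis) and *Sox2* (vertical axis) at each of the 12414 promoter peaks, coloured by where the peak was called. Neither knockout calls 11526 peaks, *Pou5f1*-KO alone calls 764, *Sox2*-KO alone 68 and both 56, with *Etv1* and *Ssr2* at the lower left.

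The one promoter higher in all 4 ICM knockout comparisons was that of *Pgk1*, a glycolytic kinase on chromosome X, with differences of 1.01 ± 0.25, 0.84 ± 0.25, 1.17 ± 0.25 and 0.87 ± 0.25 in *Pou5f1*-KO early and late and *Sox2*-KO early and late ICMs. In *Pou5f1* late ICMs the Ctrl libraries had 6.09, 5.86, 6.07 and 6.06 and the KO libraries 7.07, 6.97, 6.84 and 6.55, without overlap. The reporter cassettes of both knockout alleles contain the mouse PGK promoter, so reads from the cassette and from the gene itself cannot be told apart, and the rise is no measure of the gene. *Sox2*-KO early ICM replicate 3 stood at 9.07 against 6.65 to 7.07 in the other 3, and without it the difference was 0.63 (adjusted p = 0.201). Without *Pou5f1*-KO early ICM replicate 2 it was 0.75 (adjusted p = 0.0564).

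Some promoters responded to *Pou5f1* and differed from their response to *Sox2* by a test of the difference itself. In early ICMs the *Pou5f1*-KO effect was below the *Sox2*-KO effect at 19 promoter peaks, against 0.372% of all peaks, and above it at 3, against 0.308% of all peaks. In late ICMs it was below at 17, against 0.554% of all peaks, and above at 0, against 0.351% of all peaks. At an unadjusted p under 0.05 the late counts were 734 and 138. Centred counts were 6 and 6 in early and 6 and 3 in late ICMs. With the replicate block, which joins same-numbered KO and Ctrl libraries in both lines, the early counts were 96 and 10. Single libraries moved the lower counts. In early ICMs the count was 7 without *Pou5f1* Ctrl replicate 2, 37 and 9 without *Pou5f1*-KO replicates 2 and 4, and 47 and 8 without *Sox2* Ctrl replicates 1 and 2. In late ICMs it was 30, 7 and 8 without *Pou5f1* Ctrl replicates 1, 3 and 4, 10 and 9 without *Sox2* Ctrl replicates 1 and 4, and 10 and 8 without *Sox2*-KO replicates 1 and 2, and with 1 library left out at most 5 early and 3 late promoters lay above. *Pou2f3* was called at both stages. In *Sox2*-KO late ICMs it had 4.99, 5.16, 3.92 and 4.55 against 4.89, 5.01, 4.78 and 4.41 in *Sox2* Ctrl, which overlapped, while the *Pou5f1* line had 1.53, 1.09, 1.21 and 1.16 in KO and 3.74, 4.35, 4.60 and 4.12 in Ctrl. The effects differed by -2.84 ± 0.53 (adjusted p = 0.000791) in late and -2.45 ± 0.53 (adjusted p = 0.00684) in early ICMs. *Pou2f3* and *Liph* were the promoters lower in all 4 *Pou5f1*-KO comparisons, from morula to late ICM. *Liph* had 4.23, 4.99, 4.86 and 5.09 in *Pou5f1* Ctrl late ICMs and 2.05, 2.60, 2.43 and 3.31 in KO. Its effects differed by -2.37 ± 0.52 (adjusted p = 0.00781) in early ICMs and -1.77 ± 0.52 (adjusted p = 0.0703) in late ICMs.

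Of all 10 comparisons the step from late morula to early ICM called the most promoter peaks, 13.1% in either direction against 6.61% in *Pou5f1*-KO late ICMs. From morula to late morula in *Pou5f1* Ctrl embryos 30 promoter peaks (0.242%) were called lower, against 2.79% of all peaks, and 645 (5.20%) higher, against 3.65% of all peaks. On the centred scale these were 149 lower and 84 higher, so the excess of higher calls went with the shift of the promoter median by 0.40. The higher count was 192 and 344 without morula replicates 1 and 2 and 220, 275 and 330 without late morula replicates 1, 2 and 3, and the lower count was 17 without morula replicate 2 and 14 and 19 without late morula replicates 1 and 3. *Serhl*, a serine hydrolase-like gene, had 1.86, 1.66 and 2.14 in morulae and 5.33, 5.07 and 4.23 in late morulae, a rise of 2.99 ± 0.49 (adjusted p = 2.48e-05). *Tfap2a*, a transcription factor of trophectoderm, had 2.07, 1.86 and 1.74 and then 4.59, 4.76 and 4.34, a rise of 2.67 ± 0.46 (adjusted p = 5.9e-05). *Hmox1*, the stress-responsive heme oxygenase, rose by 1.76 ± 0.30 and *Slc2a1*, the glucose transporter GLUT1, by 1.94 ± 0.35. All 4 kept their calls on the centred scale and their groups did not overlap.

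From late morula to early ICM 345 promoter peaks (2.78%) were called lower, against 15.0% of all peaks, and 1277 (10.3%) higher, against 14.7% of all peaks. On the centred scale they were 643 and 620. Without late morula replicate 1 or 3 there were 773 higher in each case, without early ICM replicate 2 there were 793, and without late morula replicate 1 there were 210 lower. *Lifr*, the receptor subunit for LIF, at 1 of its 3 windows (chr15:7090394-7090593), had 1.30, 1.10 and 1.46 in late morulae and 5.03, 4.98, 5.34 and 5.27 in early ICMs, the largest rise at 3.87 ± 0.45 (adjusted p = 6.28e-11). *Fgf4*, the FGF ligand of the epiblast, had 1.70, 2.25 and 1.88 and then 4.55, 5.60, 5.45 and 4.68 (3.13 ± 0.47). *Fn1*, the matrix protein fibronectin, rose by 3.37 ± 0.42, *Jak3*, a cytokine receptor kinase, by 3.32 ± 0.49, *Etv1* by 3.03 ± 0.47, *Pipox* by 2.87 ± 0.46 and *Thbs2* by 2.85 ± 0.45. In the other direction *Serhl* went down to 2.57, 0.78, 3.21 and 1.17, by -2.94 ± 0.46, and *Nek6*, a mitotic kinase, fell from 5.41, 5.62 and 5.36 to 2.80, 3.04, 2.97 and 1.46, by -2.90 ± 0.43. None of these groups overlapped.

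Few promoters were called between early and late ICMs of Ctrl embryos. In the *Pou5f1* line 2 promoter peaks were called lower, against 0.180% of all peaks, and 2 higher, against 0.0787% of all peaks, and in the *Sox2* line 3 were lower, against 0.121%, and 31 higher, against 0.474%. At an unadjusted p under 0.05 there were 133 lower and 658 higher in the *Pou5f1* line and 184 and 1084 in the *Sox2* line. The *Pou5f1* line had *BC048679* and *Ggt1* lower, by -1.42 and -1.05, and the *Sox2* line had *Lrrc1*, *Galnt12* and *Metap2* lower, by -1.90, -1.81 and -1.53. *Etv1* rose by 1.74 ± 0.43 (adjusted p = 0.0459) in the *Pou5f1* line, from 3.42, 3.38, 3.15 and 4.51 to 5.76, 5.12, 5.11 and 5.41, without overlap, and this call was lost in 7 of 8 fits with a library left out (adjusted p up to 0.147) and on the centred scale (adjusted p = 0.088). On the centred scale 6 were lower and 0 higher in the *Pou5f1* line, and 5 and 4 in the *Sox2* line. Both counts of the *Pou5f1* line were 0 without early ICM replicate 2 or late ICM replicate 2 or 4, the lower count was also 0 without early ICM replicate 1 or 3, and the higher count was 4 without late ICM replicate 1. The higher count of the *Sox2* line was 53 without early ICM replicate 1, 8 without early ICM replicate 2, and 6, 3 and 13 without late ICM replicates 1, 2 and 4, and its lower count was 0 to 1 without early ICM replicate 1, 2 or 3 or late ICM replicate 1 or 2 and 6 without late ICM replicate 3.

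By gene list, a minority of the promoters of naive pluripotency genes fell in *Pou5f1*-KO ICMs and a minority opened at the ICM step. Of 37 genes 32 had 42 promoter peaks. In *Pou5f1*-KO late ICMs 10 of the 42 were called lower and 0 higher, where 5.31% of all promoters were lower and 1.30% higher, with a median difference of -0.49 against -0.22 over all promoters and -0.04 over all peaks, and 6 were lower on the centred scale. In *Pou5f1*-KO early ICMs 10 were lower and 0 higher (median -0.24), against 1.60% and 0.330% of all promoters, in *Sox2*-KO late ICMs 4 and 0 (median -0.07), against 0.588% and 0.411%, and in *Sox2*-KO early ICMs, as in *Pou5f1*-KO morulae and late morulae, none was called in either direction. *Nanog*, a core factor of the naive network, had 5.23, 4.99, 5.43 and 5.10 in *Pou5f1* Ctrl late ICMs and 3.69, 3.55, 3.45 and 3.43 in KO, without overlap (-1.66 ± 0.33, adjusted p = 5.26e-05). Its *Sox2* late ICM libraries overlapped, at 5.07, 4.81, 5.64 and 5.04 in Ctrl and 4.14, 5.13, 4.59 and 4.80 in KO (-0.47 ± 0.33, adjusted p = 0.474), and the effects differed by -1.18 ± 0.46 (adjusted p = 0.226). *Spp1*, the secreted protein osteopontin, fell in late ICMs of both lines, by -2.58 ± 0.43 and -1.51 ± 0.43, as did *Prdm14*, a transcriptional regulator of pluripotency (-1.43 ± 0.45 and -1.66 ± 0.45), and *Fgf4* (-1.80 ± 0.43 and -1.29 ± 0.43). In the *Sox2* line these calls were lost without KO replicate 2 for *Spp1*, without Ctrl replicate 3 for *Prdm14* (adjusted p = 0.114) and in 6 of 8 fits for *Fgf4* (adjusted p up to 0.243). The *Prdm14* call in the *Pou5f1* line was lost without Ctrl replicate 2 (adjusted p = 0.0564) and on the centred scale. From late morula to early ICM 17 of the 42 rose and 0 fell, against 10.3% and 2.78% of all promoters, and 13 rose on the centred scale. The median of the list above the promoter median of its library was 0.72 to 0.88 in *Pou5f1* Ctrl late ICMs and 0.22 to 0.50 in KO.

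The *Pou5f1* promoter itself (chr17:35505888-35506087) had 5.10, 5.13, 5.15 and 4.09 in Ctrl late ICMs and 5.24, 5.30, 4.93 and 4.22 in KO, which overlapped (0.06 ± 0.33, adjusted p = 0.934). The exons deleted by Cre lie downstream of this window, so it does not check the labels. It was lower in KO early ICMs (-1.13 ± 0.33, adjusted p = 0.0152), a call lost without KO replicate 4 (adjusted p = 0.237) or Ctrl replicate 2. *Sox2* had no promoter peak by this rule.

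Trophectoderm promoters, of the outer lineage that immunosurgery removes, had 28 peaks in 24 of 27 genes. Of the 28, 2 were lower and 3 higher in *Pou5f1*-KO late ICMs, against 5.31% and 1.30% of all promoters, or 10.1% and 8.19% of all peaks, and on the centred scale 0 and 9, with a median difference of 0.16 against -0.22 over all promoters. In *Sox2*-KO late ICMs 0 were lower and 3 higher (median 0.42), against 0.588% and 0.411% of all promoters. *Tspan8*, a tetraspanin of epithelia, had 4.69, 3.38, 3.70 and 3.98 in *Pou5f1* Ctrl late ICMs and 5.43, 5.56, 5.96 and 5.35 in KO (1.64 ± 0.29, adjusted p = 7.34e-06), and 3.96, 5.12, 5.10 and 4.62 in *Sox2* Ctrl and 6.03, 6.38, 6.15 and 5.34 in KO (1.27 ± 0.29, adjusted p = 0.00116). Neither pair overlapped. *Cdx2*, the master factor of trophectoderm, had 0.98 ± 0.31 in *Sox2*-KO late ICMs (adjusted p = 0.0335), called in 3 of 8 fits with a library left out (adjusted p up to 0.178), and -0.21 ± 0.31 in *Pou5f1*-KO (adjusted p = 0.7). The median of this list above its library's promoter median was 0.05 to 0.36 in *Pou5f1* Ctrl and 0.29 to 0.73 in KO late ICMs, and 0.01 to 0.42 and 0.25 to 0.93 in the *Sox2* line. Whether outer cells left after isolation had a part in the higher promoters was not tested. At the step from late morula to early ICM 6 fell, *Cdx2* and *Tfap2a* among them, and 4 rose, against 2.78% and 10.3% of all promoters.

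Each of the other lists had at most 5 called promoters in a knockout comparison. Primitive endoderm, the second lineage of the ICM, had 17 promoter peaks in 15 of 22 genes, and *Dab2*, an endocytic adaptor, was its one called promoter in late ICMs (0.84 ± 0.30 in *Pou5f1*-KO and 0.91 ± 0.30 in *Sox2*-KO, calls lost in 7 and 6 of 8 fits with a library left out, adjusted p up to 0.0952 and 0.169), where 1.30% and 0.411% of all promoters were higher. At the ICM step 4 of the 17 rose, against 10.3% of all promoters. Of 12 formative and primed epiblast peaks in 9 of 22 genes 1 fell and 1 rose in *Pou5f1*-KO late ICMs, where 5.31% of all promoters were lower and 1.30% higher, the former at *Otx2*, a homeobox factor of formative cells (-1.86 ± 0.43, adjusted p = 0.000602), and 6 rose at the ICM step, against 10.3% of all promoters. Of 35 peaks in 24 of 25 glycolysis and pyruvate genes 3 fell and 2 rose in *Pou5f1*-KO late ICMs, against the same shares, and 3 fell and 1 rose in early ICMs, where 1.60% of all promoters were lower and 0.330% higher. *Pgk1*, whose rise is no measure of the gene, is 1 of the 2 and the one in early ICMs, and *Hk1* is the other of the 2. The downstream of 2 windows of *Hk2*, a hexokinase, had 4.42, 4.80, 4.47 and 4.27 in Ctrl and 2.38, 2.91, 2.24 and 2.85 in KO (-1.90 ± 0.37, adjusted p = 5.76e-05), opposite to the called *Hk1* window, while the upstream *Hk2* window had 0.03 (adjusted p = 0.953), and *Pck2*, the mitochondrial PEP carboxykinase, fell by 1.75. In the *Sox2* line the downstream *Hk2* window had 4.84, 4.77, 4.20 and 4.33 in Ctrl and 4.80, 4.79, 3.92 and 4.54 in KO, which overlapped, and the effects differed by -1.87 ± 0.53 (adjusted p = 0.0575).

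Of 33 chromatin modifier peaks in 27 of 32 genes 2 fell in *Pou5f1*-KO late ICMs, against 5.31% of all promoters, one of them the upstream window of *Uhrf1*, a partner of the maintenance DNA methyltransferase (-1.80 ± 0.39, adjusted p = 0.00027). Germline genome-defence genes had 20 peaks in 18 of 25 genes with 1 lower and 0 higher, glutathione genes 16 in 15 of 19 with 1 and 0, and p53 and stress genes 21 in 19 of 23 with 1 and 0. On the centred scale each of these lists had 0 lower and 0 higher in *Pou5f1*-KO late ICMs, and the chromatin modifiers had 1 lower. At the ICM step 4 of the 20 germline promoters and 7 of the 21 p53 and stress promoters rose and none of either list fell, against 10.3% of all promoters higher and 2.78% lower, and on the centred scale 2 and 4 rose. Of the 22 genes of the two-cell-stage list, those that mark the first genome activation, only 4 had promoter peaks, and none of their 5 peaks was called in a knockout, where the share of all promoters was at most 5.31% in either direction. From late morula to early ICM 2 of the 5 fell and 1 rose, against 2.78% and 10.3% of all promoters, and on the centred scale 2 fell and 0 rose. Of 33 proteasome peaks in 31 of 32 genes 1 was lower in *Pou5f1*-KO late ICMs, 0 on the centred scale. From morula to late morula and from late morula to early ICM 0 were called. There the list had medians of 0.39 and 0.28 against 0.40 and 0.24 over all promoters, and 5.20% and 10.3% of all promoters were called higher. Of 86 ribosomal protein peaks in 80 of 86 genes 4 were lower in *Pou5f1*-KO late ICMs, 0 on the centred scale, and 11 rose at the ICM step, against 3 lower and 2 higher on the centred scale.

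In late ICMs of both knockouts a larger share of promoters with an OCT-SOX match than of all promoters was called lower, a description over windows and not a test. The composite OCT-SOX element, searched on both strands and allowing 3 mismatches in 15 positions, was found in 90 promoter peaks (0.725%) and 4648 other peaks (3.32%), and 69 of the 90 had the full 3 mismatches. Of the 90, 23 (25.6%) were called lower and 0 higher in *Pou5f1*-KO late ICMs, against 5.31% and 1.30% of all promoters, and 10 (11.1%) lower and 1 higher in *Sox2*-KO late ICMs, against 0.588% and 0.411%. Other peaks with the element were called lower in 48.3% and 34.2% of cases, against 10.5% and 5.26% of all other peaks. Seen from the called promoters, 3.49% of those lower in *Pou5f1*-KO and 13.7% of those lower in *Sox2*-KO late ICMs held the element. Among CpG-poor promoters 59 of 3936 held it, and the share was 5.81% of those lower in *Pou5f1*-KO and 15.5% of those lower in *Sox2*-KO late ICMs. At the ICM step 29 of the 90 (32.2%) opened and 1 closed, against 10.3% and 2.78% of all promoters. *Il33* and *Liph*, which hold a match, were called lower in *Pou5f1*-KO late ICMs, while in *Sox2*-KO late ICMs their differences were 0.09 ± 0.32 (adjusted p = 0.936) and -0.43 ± 0.37 (adjusted p = 0.602).

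The GATA word, AGATAAG on either strand, was in 162 promoter peaks (1.30%) and 8.28% of other peaks. Of the 162, 0 were lower and 19 (11.7%) higher in *Pou5f1*-KO late ICMs, against 5.31% and 1.30% of all promoters, or 10.1% and 8.19% of all peaks, and among the 161 higher promoters 11.8% held it. Of these 161, 146 were CpG-poor, and the part of base composition in these shares was not tested. The TEAD word CATTCCA was in 2.06% of promoters and 10.6% of those that rose in *Pou5f1*-KO late ICMs, and in 4.01% of CpG-poor promoters. Of the promoters with it, 21 (8.20%) were lower and 17 (6.64%) higher in that comparison, with a median difference of -0.12 against -0.22 over all promoters. The NFY word CCAAT was in 32.0% of promoter peaks, in 44.8% of those that rose from morula to late morula and in 43.1% of those that rose from late morula to early ICM. These matches are letters in a window and not evidence of binding.

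**Figure D5:**
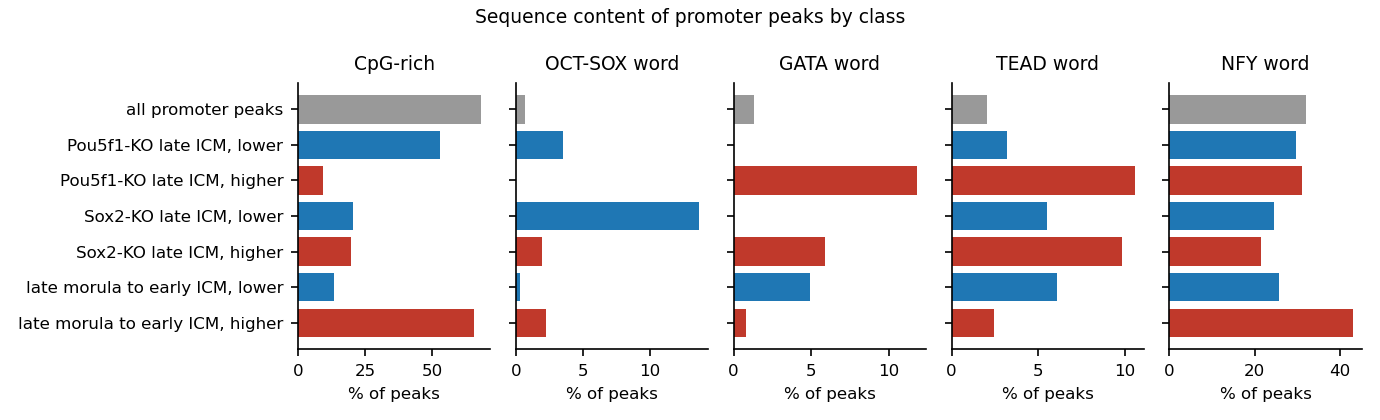
Percent of promoter peaks in each class (all, and those called lower or higher in the comparisons named on the axis) that are CpG-rich or hold an OCT-SOX, GATA, TEAD or NFY match. CpG-rich windows make up 68.3% of all promoter peaks and 9.32% of those higher in *Pou5f1*-KO late ICMs, and OCT-SOX matches peak at 13.7% in promoters lower in *Sox2*-KO late ICMs.

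Starts of the same gene were called as different in a minority of pairs. Of all promoter peaks 23.0% belonged to a gene with another promoter peak, against 27.0% of the 659 lower and 38.5% of the 161 higher in *Pou5f1*-KO late ICMs. Pairs of promoter peaks at least 1000 bp apart numbered 1149, in 856 genes, and the difference between the 2 starts was tested in each with limma, adjusted over the pairs. The pairs that differed numbered 75 in *Pou5f1*-KO late ICMs, 6.53% of those tested, 46 without Ctrl replicate 2 and 44 without Ctrl replicate 3. In *Sox2*-KO late ICMs 2 differed, those of *Ssr2* and *Dennd2c*, 0.174% of those tested, and 6 of 8 fits with a library left out called 1 pair. From late morula to early ICM 163 differed, 14.2% of those tested, 74 and 81 without late morula replicates 1 and 3. At *Ssr2* the upstream start changed by -3.88 in *Pou5f1*-KO late ICMs and the start 3732 bp downstream by -0.37, a difference of -3.51 ± 0.51 (adjusted p = 1.07e-05), and in *Sox2*-KO late ICMs by -4.49 and 0.16 (-4.65 ± 0.51, adjusted p = 4.47e-09). At *Dennd2c* the upstream start changed by 0.21 and the OCT-SOX-bearing start 24952 bp downstream by -2.56 in *Pou5f1*-KO, and by -0.37 and -2.59 in *Sox2*-KO (adjusted p = 0.0338 for the difference between the starts). At *Myo10* the downstream start fell by 2.78 and the upstream start had 0.18. At *Il33* the upstream start, with the OCT-SOX match, fell by 1.40 in *Pou5f1*-KO late ICMs while the start 6026 bp downstream rose by 1.25. At the ICM step *Jam2*, a junctional adhesion molecule, gained 2.68 at its upstream start and had -0.44 at the other.

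Promoters on chromosome X numbered 405. Of these 5.19% were called lower in *Pou5f1*-KO late ICMs against 5.31% of the 12009 autosomal promoter peaks, with median differences of -0.27 and -0.22, and at the ICM step 7.41% and 10.4% were called higher, with medians of 0.15 and 0.24. In *Pou5f1*-KO early ICMs 0.741% (3 promoters) and 1.63% were lower, and from early to late ICM in the *Sox2* line 0.741% (3 promoters) and 0.233% were higher.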

How the data were processed

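Accessibility was measured by ATAC-seq in 44 libraries of 12 groups, taken from the sample labels. The authors trimmed reads with SeqPurge, aligned them to mm10 with Bowtie2, removed duplicates with Picard, kept unique reads off chromosome Y and the mitochondrial genome, shifted read ends to the Tn5 cut site, called peaks per library with MACS2, merged summits over all groups into windows of 200 bp and counted insertions with BEDTools. The deposited values are rlog values, a regularized log2 scale that corrects for depth and shrinks weak windows towards their mean. The counts behind them, and so the depth of each library, were not analysed here, and no count model was run. A second deposited table held the authors' group means and was not used.

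Start sites came from GENCODE vM21 (mm10, from the reference annotation), whereas the authors annotated peaks with a later release. Promoter peaks had a start site of a protein-coding transcript at most 100 bp from the window. Each comparison was fitted in R 4.3.3 with limma 3.58.1 (lmFit, contrasts.fit and eBayes with an intensity trend) over all 152393 peaks and all 44 libraries, with 32 residual degrees of freedom, two-sided moderated tests and Benjamini-Hochberg adjustment over all peaks, and called at an adjusted p under 0.05. It was tested on simulated data first. The study tested insertion counts, and limma takes the place of that test because the deposited unit is rlog. Alternatives were other definitions of a promoter, only the libraries compared, stronger peaks alone, quantile normalization, centring on the promoter median, a replicate block and leaving out each library.

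The members and the 12 gene lists were chosen with earlier results of these data known, and the lists lend no independent support. Genes were named by rule: for late ICM knockouts and late morula to early ICM the 8 largest called changes each way without overlap between groups, for other comparisons 4, for differences between knockouts the 4 smallest adjusted p each way, up to 6 called members per list, promoters called in both knockouts, *Pou5f1* and *Sox2*, and the 5 pairs of starts with the smallest adjusted p, from which the text gives a selection. A few promoters that this rule names are not reported here. The 5 promoters of highest mean rlog were added. Same-numbered KO and Ctrl libraries deviated together from their group means in *Pou5f1* late morulae (r = 0.141, 0.192 and 0.109 across peaks) and early ICMs (r = 0.151, 0.141, 0.121 and 0.162), so these were taken as paired. Such libraries also had r = 0.111, 0.0479 and 0.153 in *Pou5f1* morulae and 0.221, 0.0859, 0.104 and 0.293 in *Sox2* early ICMs. There *Sox2*-KO replicate 3 and Ctrl replicate 1, with unlike numbers, had r = 0.113. These were not taken as paired, and counts with the block are given too. Motifs and CpG content were read from the mm10 sequence with Python 3.11.15.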

Additional observations from a re-analysis of the deposited data

Results flagged for a closer look

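Each promoter named by rule was searched for a library that stood far from the other 3 of its group by Dixon's criterion. Of 140 groups, 9 had one, and chance gives about 1 in 20; the values of 8 are given. *Myl4* had *Pou5f1*-KO late ICM replicate 2 at 2.86, against 3.83 to 3.98 in the others, and Ctrl late ICM replicate 2 at 2.04, against 1.47 to 1.50. *Thbs2* had *Sox2* Ctrl early ICM replicate 2 at 3.83, against 4.40 to 4.47. *Nek6* had *Pou5f1* Ctrl early ICM replicate 4 at 1.46, against 2.80 to 3.04. *Tdrd7* had *Sox2* Ctrl late ICM replicate 1 at 0.603, against 1.37 to 1.53. *Galnt12* had *Sox2* Ctrl early ICM replicate 2 at 0.906, against 2.51 to 2.58. *Mfap5* had *Pou5f1* Ctrl early ICM replicate 1 at 0.661, against 1.54 to 1.68. *BC048679* had *Pou5f1* Ctrl late ICM replicate 2 at 1.87, against 3.32 to 3.60.

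Effects of the knockouts differed by limma's test of the difference itself, adjusted over all peaks, in 11 cases at 10 promoters chosen by the smallest adjusted p in each direction. In early ICMs the *Pou5f1*-KO effect minus the *Sox2*-KO effect was -2.63 at *Hormad2*, -2.45 at *Pou2f3*, -2.37 at *Liph* and -2.09 at *Itga3*, and 3.24 at *Mfap3l*, 2.26 at *Fgd4* and 1.93 at *Cldn22*. Those at *Fgd4* and *Cldn22* were each lost in 1 of 16 fits with a library left out (adjusted p up to 0.0714 and 0.0679). In late ICMs it was -2.84 at *Pou2f3*, -2.65 at *Fsd1l*, -2.41 at *Fn1* and -1.49 at *Slc8b1*. That at *Fn1* was lost in 1 of 16 such fits (adjusted p = 0.0571), and that at *Slc8b1* on the centred scale (adjusted p = 0.0855).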

How the results depend on the processing

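Values here are the percent of promoter peaks called in either direction, and causes of these moves were not tested. No alternative changed the sign of any of the 212 named calls. In *Pou5f1*-KO late ICMs (6.61) and from late morula to early ICM (13.1), no alternative other than leaving out a library moved the percent by over 1.5 times. *Pou5f1*-KO morulae had 0.0242, against 0.0110 with window centres within 100 bp, 0.0520 with windows within 1 kb, 0.0433 with start sites of every transcript type, 0 with only the libraries compared and 0.0886 after quantile normalization. Windows within 1 kb gave 0.147 in *Pou5f1*-KO late morulae, 3.04 in early ICMs, 0.463 and 1.98 in *Sox2*-KO early and late ICMs, and 0.293 and 0.269 for the difference between knockouts in early and late ICMs. Start sites of every type gave 0.142 in *Pou5f1*-KO late morulae, 0.451 and 1.92 in *Sox2*-KO early and late ICMs, 0.0495 from early to late ICM in the *Pou5f1* line and 0.266 for the late difference. With only the libraries compared, *Sox2*-KO early ICMs had 0.0967, early to late ICM in the *Pou5f1* line 0.0564, and the early and late differences 0.0564 and 0.427. With peaks at or above the median rlog alone, early to late ICM in the *Sox2* line had 0.182, the early difference 0.278, and the pairs of starts 41 in *Pou5f1*-KO and 1 in *Sox2*-KO late ICMs. Quantile normalization gave 0.0806 for the late difference and 1 pair in *Sox2*-KO late ICMs. Centring gave 1.88 from morula to late morula, 0.0725 from early to late ICM in the *Sox2* line, and 0.0967 and 0.0725 for the early and late differences.

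With the replicate number as a block, the percent was 0.169 in *Pou5f1*-KO late morulae and 3.50 in early ICMs, which were taken as paired. The block gave 0.209 in *Pou5f1*-KO morulae and 0.701 in *Sox2*-KO early ICMs, where same-numbered libraries also deviated together. It gave 1.53 in *Sox2*-KO late ICMs, 0.0161 from early to late ICM in the *Pou5f1* line and 0.677 for the late difference. The early difference had 0.854. The block ended 5 of 212 named calls.

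With 1 library left out, the percent was 0 to 0.0886 in *Pou5f1*-KO morulae, 0.0242 to 0.0644 in late morulae, 1.13 to 2.42 in early ICMs and 4.21 to 6.48 in late ICMs, 0.113 to 0.556 and 0.693 to 0.757 in *Sox2*-KO early and late ICMs, 1.72 to 7.95 from morula to late morula, 7.92 to 13.2 from late morula to early ICM, 0 to 0.0483 and 0.0242 to 0.435 from early to late ICM in the *Pou5f1* and *Sox2* lines, and 0.0725 to 0.419 and 0.0644 to 0.266 for the early and late differences. Pairs of starts numbered 44 to 75 and 1 to 2 in *Pou5f1*-KO and *Sox2*-KO late ICMs and 74 to 148 at the ICM step. Of the 212 named calls, centring ended 41, only the libraries compared 16, quantile normalization 12, and stronger peaks alone 7 of 160.

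Depth cannot be read from rlog values, and the effect of their shrinkage of weak windows on the calls was not tested. The members depend on which starts are annotated, the pools mix cells, and groups of 3 or 4 libraries leave smaller changes undetected.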
